A study of Drosophila melanogaster with 24 samples.

Results

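The cytosolic ribosome of Drosophila is built from a large and a small subunit, and its proteins are encoded by genes named RpL, RpS and, for the acidic stalk that recruits elongation factors, RpLP. Rows of the count table were taken as members when their symbol began with RpL or RpS followed by a digit, or was RpLP0, RpLP1 or RpLP2, and when they were protein-coding; mitochondrial ribosomal protein genes were left out. This gave 90 of the 17370 genes in the table, 50 of the large subunit, 37 of the small subunit and 3 of the stalk. Of 91 such symbols in the annotation, only RpS12 had no matching row.

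Each working ribosome carries most of its proteins in equimolar amounts, and in flies the loss of 1 copy of many of these genes gives the dominant Minute phenotype of slow growth and short bristles. The early embryo translates with ribosomes and ribosomal protein mRNAs that the mother stored in the egg, and zygotic genome activation (ZGA) later adds transcripts made by the embryo itself. Several Drosophila ribosomal proteins have duplicate genes, and many of the duplicates are known for restricted expression, often in the germline.

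The transcriptomes came from 24 single embryos, 6 in each of 4 groups, by non-directional RNA-seq after removal of ribosomal RNA. AcfC embryos carry a CRISPR deletion of most of Acf, which encodes the regulatory subunit of the ACF and CHRAC nucleosome remodelers; the allele is represented by 1 line, backcrossed for 8 generations to the wild-type strain OrR, which supplied the control embryos (WT). Both genotypes were taken at Bownes Stage 8, about 4 h old and after ZGA, and at Bownes Stage 3, about 1 h old and before ZGA. AcfC Stage 3 replicate 2 was left out of the fits, as the study excluded an embryo for improper staging, so that group had 5 embryos. The whole embryo was lysed, and fewer cells of a type cannot be told apart from less RNA per cell.

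Total counts ran from 4213692 to 11935129 over the embryos, and those on ribosomal protein genes from 205696 to 537450. Acf averaged 51.7 ± 10.9 CPM in AcfC embryos and 493 ± 13.0 CPM in WT embryos at Stage 8 (SD, n = 6 each), and 121 ± 13.5 CPM in AcfC embryos (n = 5) and 644 ± 26.3 CPM in WT embryos (n = 6) at Stage 3. The maternal RNA bcd averaged 3 CPM or less in both Stage 8 groups, and the zygotic gene twi 0.3 CPM or less in both Stage 3 groups (n = 5 for AcfC, 6 for WT). CPM values are counts relative to library size, scaled by TMM over all 24 embryos. Levels are compared between genes as CPM per kb of exon, except that shares of paralog pairs are taken from counts.

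Most ribosomal protein mRNAs were among the most abundant in the embryo at both stages. Of the 90 genes, 82 had at least 58 counts in every embryo, and the other 8 never exceeded 21 counts. The median of the 82 active genes was 1158 CPM per kb at Stage 8 and 709 CPM per kb at Stage 3 in WT embryos, whereas the median of all genes tested was 11.4 and 28.0 CPM per kb at these stages. Among the 100 genes with the highest level per kb in WT embryos, 69 were ribosomal protein genes at Stage 8 and 64 at Stage 3.

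RpL41, which encodes the smallest ribosomal protein, had the highest level per kb, 10182 ± 375 CPM per kb at Stage 8 and 5977 ± 596 CPM per kb at Stage 3 (WT, SD, n = 6 each). RpL41 overlaps NaCP60E, and without strand the reads of overlapping genes cannot be separated. RpS18, a protein of the small subunit head, followed with 2482 ± 164 CPM per kb at Stage 8 and 1352 ± 93.9 CPM per kb at Stage 3. RpL27A ranked next at Stage 8 with 2418 ± 111 CPM per kb, against 1315 ± 63.5 CPM per kb at Stage 3. RpLP2 of the stalk ranked after RpS18 at Stage 3 with 1320 ± 125 CPM per kb, against 2076 ± 75.9 CPM per kb at Stage 8. RpS18, RpL27A and RpLP2 lay within 1 SD of each other at Stage 3, so their order there has no meaning beyond the spread.

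At the low end of the active genes stood duplicates. RpS15Ab had 59.9 ± 5.16 CPM per kb at Stage 8 and 23.2 ± 3.44 CPM per kb at Stage 3 (WT, SD, n = 6 each). RpS14b had 181 ± 16.0 CPM per kb at Stage 8 and 104 ± 9.01 CPM per kb at Stage 3. RpL34a had 233 ± 13.1 and RpL24-like 258 ± 10.8 CPM per kb at Stage 8, and they had 172 ± 10.9 and 133 ± 16.0 CPM per kb at Stage 3. The protein of RpL24-like is related to yeast Rlp24, a factor of large subunit assembly rather than a core ribosomal protein.

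**Figure D1:**
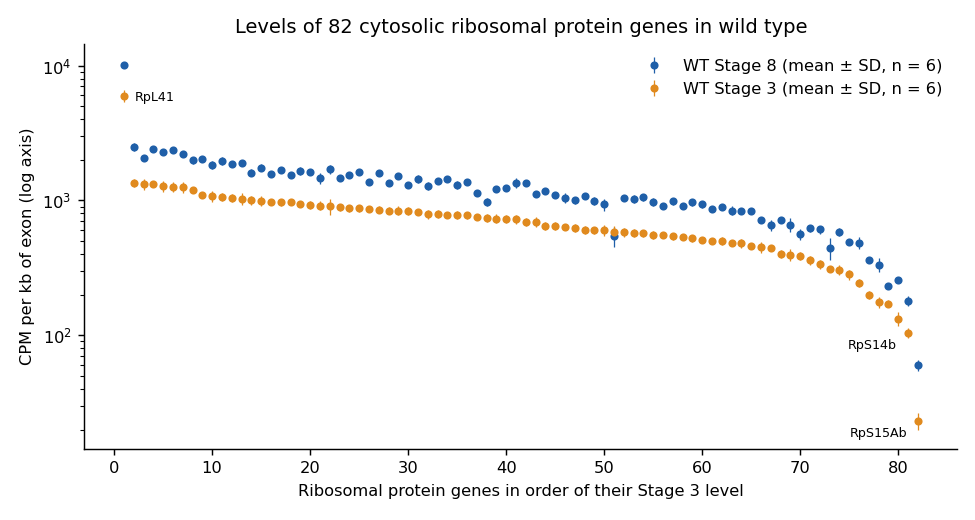
Mean level of the 82 active ribosomal protein genes in WT embryos (CPM per kb of exon, log axis) against their order at Stage 3, with Stage 8 in blue and Stage 3 in orange; bars are SD over 6 embryos. RpL41 stands at 10182 and 5977 CPM per kb and RpS15Ab at 59.9 and 23.2 CPM per kb, with Stage 8 first.

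The 8 near-silent genes were RpL10Aa, RpL22-like, RpL37-2, RpL7-like, RpS10a, RpS19b, RpS28-like and RpS28a. RpL37-2 and RpS28-like are named here after their values were seen. RpL7-like, related to the yeast assembly factor Rlp7, had 0 counts in all 24 embryos. This allows up to 0.025 CPM (3 counts over all embryos, counting error only), leaving aside any reads lost where it overlaps CG34164. RpL10Aa had 2 counts, RpS28-like 4, RpL22-like 6, RpL37-2 12, RpS28a 22, RpS10a 63 and RpS19b 99, each summed over the 24 embryos. RpL22-like, RpS10a and RpS19b are known for expression in the adult germline. RpS10a lies over tau, RpS28-like over CG3769 and RpL7-like over CG34164, so that for RpS10a and RpS28-like the origin of the few reads is uncertain. For RpL7-like, reads of overlapping genes cannot be separated without strand, so its 0 counts do not show that it is silent.

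The genes occupy every major chromosome arm, with 23 on 3R, 20 on 2R, 19 on 2L, 14 on X, 13 on 3L and 1, RpS3A, on chromosome 4. Their transcripts were short, with a median canonical mRNA of 805 bp, against 1684 bp for all protein-coding genes, and a median 5′ untranslated region of 84.5 bp, against 126 bp. Inside 27 of them lie 72 annotated snoRNA genes, the small RNAs that guide rRNA modification. In 33 members the gene overlaps another annotated gene.

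Ribosomal protein genes took a larger share of protein-coding counts after ZGA than before it, a relative measure that gives no amount per embryo. In AcfC embryos they held 9.53 ± 0.54% of protein-coding counts at Stage 8 (SD, n = 6), with a range of 9.06 to 10.3%, and 6.35 ± 0.64% at Stage 3 (n = 5), with a range of 5.66 to 7.28%. In WT embryos they held 9.21 ± 0.19% at Stage 8, with a range of 8.94 to 9.49%, and 5.84 ± 0.32% at Stage 3, with a range of 5.43 to 6.29% (n = 6 each). The stages did not overlap in either genotype, and the genotypes overlapped at both stages. The left-out AcfC Stage 3 replicate 2 stood at 6.85%, between the other AcfC embryos. As a share of all counts in the table, which include non-coding RNA, the members held 4.69 ± 0.46% in AcfC embryos and 4.49 ± 0.12% in WT embryos at Stage 8, and 3.92 ± 0.29% in AcfC embryos and 3.64 ± 0.18% in WT embryos at Stage 3. On this scale the stages overlapped in AcfC embryos, 4.07 to 5.37% at Stage 8 and 3.61 to 4.31% at Stage 3, and did not in WT embryos.

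Stage 8 was then compared with Stage 3, the question being how this class of transcripts passes through the maternal to zygotic transition. In AcfC embryos 83 of the 85 members tested rose at Stage 8 and none fell (edgeR quasi-likelihood test, Benjamini-Hochberg adjusted p under 0.1 over 8840 genes); of all genes tested 86.2% were called, 51.5% higher and 34.7% lower. The median change of the members was 0.78 on the log2 scale, against 0.40 for all genes. In WT embryos 82 of the 83 members tested rose and none fell, with a median of 0.88 against 0.20 for all genes; of all 8107 genes tested 88.2% were called, 48.8% higher and 39.3% lower. These comparisons did not share embryos. A rise or fall here is relative to the library, and the amount of RNA per embryo was not examined.

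The active members moved within a narrow band. Of the 82 active genes, 74 in AcfC and 75 in WT embryos had a log2 fold change between 0.5 and 1, whereas the 10th and 90th percentiles of all genes tested were -2.25 and 5.97 in AcfC and -2.41 and 4.85 in WT embryos. The percentiles include genes with few counts, which the 82 do not, and no set of genes of similar level was compared. The medians of the large subunit genes were 0.75 in AcfC and 0.84 in WT embryos, and those of the small subunit genes 0.81 in AcfC and 0.90 in WT embryos. Genes with a snoRNA gene inside had medians of 0.75 in AcfC and 0.90 in WT embryos, and genes without one 0.78 in AcfC and 0.86 in WT embryos. By chromosome arm the medians ran between 0.74 and 0.84 in AcfC and between 0.85 and 0.91 in WT embryos.

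Every Stage 8 embryo lay above every Stage 3 embryo for 77 of 85 members in AcfC, where this held for 39.8% of all genes tested, and for 81 of 83 members in WT, where it held for 38.8%. No member lay below in every embryo, against 30.6% of all genes in AcfC and 33.4% in WT. Among the 8 exceptions in AcfC were RpLP0, RpL38, RpL34a, RpL4 and the near-silent RpS10a, RpS19b and RpS28a. RpS19b was also among the 2 exceptions in WT.

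**Figure D2:**
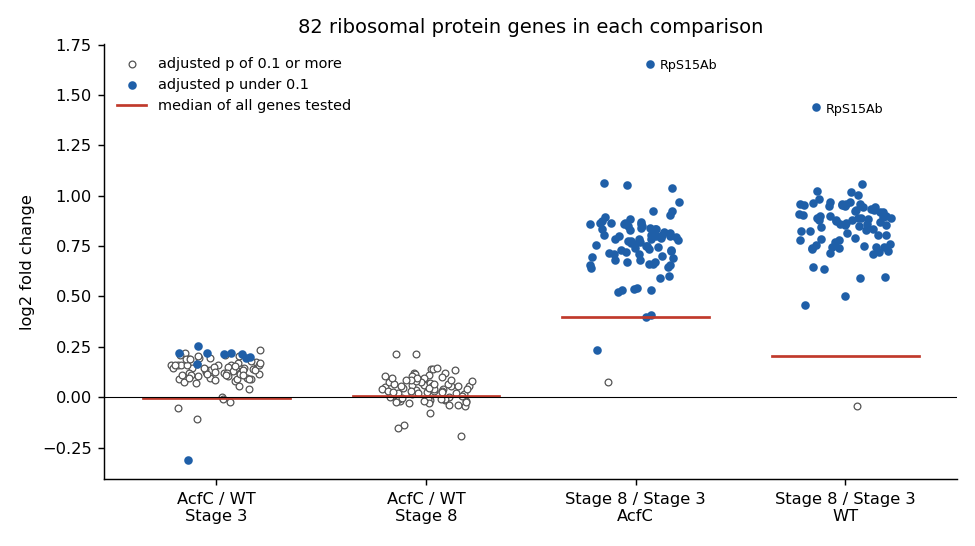
log2 fold change of the 82 active ribosomal protein genes in the 4 pairwise comparisons; blue points passed an adjusted p of 0.1 in edgeR's quasi-likelihood test, open points did not, and red lines mark the median of all genes tested. Over all members tested, 85 in AcfC and 83 in WT, the stage comparisons have medians of 0.78 and 0.88. Among the genes shown RpS15Ab stands above the rest in the stage comparisons, and the genotype comparisons lie close to 0.

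The size of the rise, and for a few genes its direction, depended on how libraries were scaled. Scaled to all counts of the table, an alternative chosen after seeing the data, the median of all genes moved to -0.08 in AcfC and -0.33 in WT. The members then had medians of 0.30 in AcfC, with 80 of 85 above 0, 71 called higher and 2 lower, and 0.34 in WT, with 80 of 83 above 0, 77 called higher and 1 lower. Counts outside protein-coding genes enter this scaling and made up 46.4 to 55.7% of a library at Stage 8 and 34.8 to 40.8% at Stage 3 in AcfC, and 49.9 to 53.8% and 32.2 to 42.6% at these stages in WT embryos. Their part in the change was not tested. All genes then split into 3614 higher and 3958 lower in AcfC, against 4552 and 3068 with TMM, and into 2996 higher and 4170 lower in WT, against 3960 and 3189. With the size factors of DESeq2 the median of all genes moved to 0.51 in AcfC and 0.34 in WT, and that of the members to 0.89 and 1.01.

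Among active genes RpS15Ab, a second gene for the small subunit protein RpS15A, rose most. In AcfC embryos it had 40.1, 44.5, 51.1, 52.6, 52.9 and 64.4 CPM at Stage 8, against 8.93, 16.9, 17.1, 20.5 and 20.5 CPM at Stage 3. The fold change was 1.65 ± 0.19 on the log2 scale (SE, edgeR adjusted p = 2.21e-06). In WT embryos it had 37.7 to 47.8 CPM at Stage 8, with a median of 44.2, against 14.9 to 21.5 CPM at Stage 3, with a median of 16.0. The fold change was 1.44 ± 0.11 (adjusted p = 3.23e-09). The stages were fully separated in both genotypes. RpS15Ab held only 58 to 249 counts per embryo, and how uniquely mapped reads split between it and RpS15Aa was not examined.

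RpL24-like averaged 202 ± 11.4 CPM at Stage 8 and 100 ± 4.23 CPM at Stage 3 in AcfC embryos (SD, n = 6 and 5). It averaged 199 ± 8.36 CPM at Stage 8 and 103 ± 12.4 CPM at Stage 3 in WT embryos (SD, n = 6 each).

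Of the near-silent genes, RpS19b was called higher at Stage 8 in both genotypes from few reads, 43 counts over 6 Stage 8 and 11 over 5 Stage 3 embryos in AcfC, and 38 counts and 4 counts over 6 embryos each in WT. RpS28a was called higher in AcfC from 12 counts over 6 Stage 8 embryos and 1 count over 5 Stage 3 embryos. Their fitted log2 changes of 2.13 and 3.71 for RpS19b in AcfC and WT and of 3.31 for RpS28a depend on the prior count and are no bounds.

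Among the active genes called higher, RpLP0, RpL34a and RpL38 had the smallest changes in both genotypes. They were picked out after their values were seen. RpLP0, the base of the stalk to which RpLP1 and RpLP2 attach, averaged 1187 ± 138 CPM at Stage 8 and 1045 ± 86.2 CPM at Stage 3 in AcfC embryos, a log2 change of 0.24 ± 0.10. In WT embryos it averaged 1293 ± 80.8 CPM at Stage 8 and 986 ± 67.4 CPM at Stage 3, a log2 change of 0.46 ± 0.06. Its partners rose more, RpLP1 by 0.82 in AcfC and 0.88 in WT embryos and RpLP2 by 0.66 and 0.72, on the same scale. The differences between these genes were not tested. Scaled to all counts, the change of RpLP0 was -0.24 in AcfC (edgeR adjusted p = 0.051, called lower) and -0.082 in WT embryos (adjusted p = 0.27), and that of RpL38 was -0.087 in AcfC and 0.05 in WT embryos, neither called.

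Paralog pairs were compared by the share of the pair's counts on the second gene, a description with no test. These shares are not corrected for exon length. Per kb of exon in AcfC embryos, RpL34b took 71.1% at Stage 8 and 65.0% at Stage 3. On that basis RpL24-like took 27.3% and 20.8%, and RpS15Ab 5.96% and 3.51%. RpL34b took 78.6 ± 1.33% of its pair at Stage 8 and 73.5 ± 1.27% at Stage 3 in AcfC, and 79.6 ± 0.83% and 74.4 ± 1.70% at these stages in WT embryos. RpL34a rose by 0.41 in AcfC and 0.50 in WT embryos on the log2 scale, but stood at -0.073 and -0.037 when scaled to all counts, and RpL34b rose by 0.80 and 0.93. RpL24-like took 18.7 ± 1.12% at Stage 8 and 13.8 ± 0.76% at Stage 3 in AcfC, and 19.4 ± 1.15% and 15.4 ± 1.40% at these stages in WT embryos. RpS15Ab took 4.64 ± 0.74% at Stage 8 and 2.71 ± 0.64% at Stage 3 in AcfC, and 4.10 ± 0.31% and 2.87 ± 0.42% in WT embryos. For these 3 pairs the stages did not overlap in either genotype, and the share was higher at Stage 8.

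RpS14a and RpS14b lie next to each other on X, at 7933742 to 7934677 and 7934898 to 7935792, and encode the same protein in similar sequence, so that the split of uniquely mapped reads between them is uncertain. RpS14b took 17.4 ± 1.49% of the pair in AcfC and 17.4 ± 1.56% in WT embryos at Stage 8. At Stage 3 it took 14.8 to 17.4% in the 5 AcfC embryos, against 17.6 to 19.6% in the 6 WT embryos, with no overlap. The CPM of RpS14b overlapped between the genotypes at Stage 3, 57.3 ± 4.85 in AcfC and 62.1 ± 5.38 in WT embryos, and its log2 change was -0.11 ± 0.08 (edgeR adjusted p = 0.41).

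In 7 further pairs the second gene was near-silent and one gene supplied nearly all counts. These were RpS10b, RpS19a, RpS28b, RpL37-1, RpL10Ab, RpL22 and RpL7, and all 7 rose at Stage 8, by 0.59 to 0.89 in AcfC and by 0.77 to 0.90 in WT embryos on the log2 scale. RpL7, a large subunit protein, averaged 1737 ± 107 CPM in AcfC and 1699 ± 69.1 CPM in WT embryos at Stage 8, and 1136 ± 124 CPM in AcfC and 1042 ± 61.4 CPM in WT embryos at Stage 3. In the 24 embryos RpS10a, the largest of the minor partners at its maximum, did not exceed 0.53% of its pair.

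**Figure D3:**
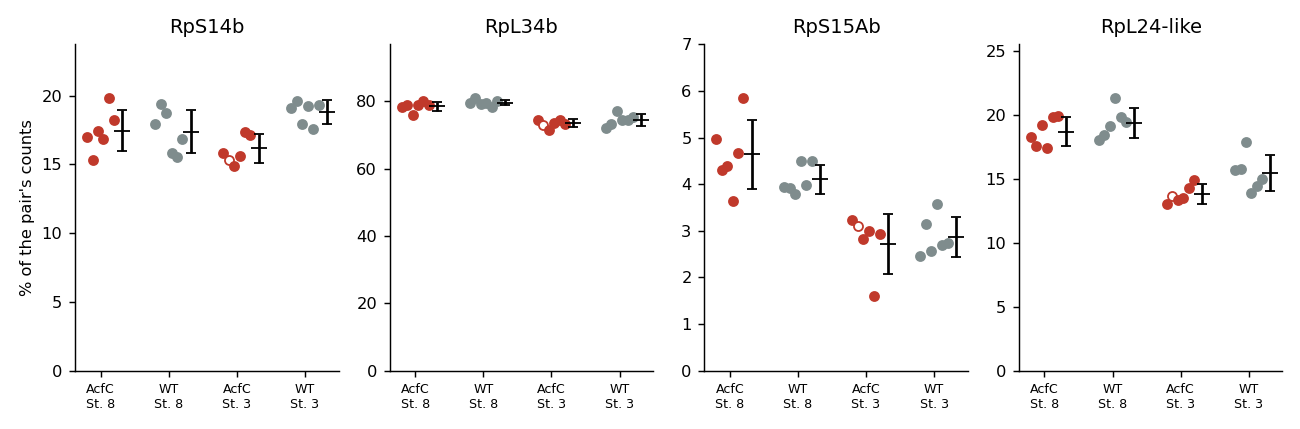
Share of a paralog pair's counts on the named second gene (%) in each embryo for 4 pairs with both genes active; AcfC is red and WT grey, the open point is the left-out AcfC Stage 3 replicate 2, and bars are the mean and SD. The RpL34b, RpL24-like and RpS15Ab shares are higher at Stage 8 in both genotypes, and the RpS14b share is the one without overlap between AcfC and WT at Stage 3.

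The effect of losing Acf was examined at each stage separately. Before ZGA, 9 of the 83 members tested were higher in AcfC than in WT embryos by edgeR's quasi-likelihood test (10.8% of those tested, against 6.34% of all 7307 genes) and 1 lower (against 5.67% of all genes), and of all genes 12% were called in either direction. The log2 fold change was positive for 78 of the 83, with a median of 0.14 (1.10-fold), against -0.003 for all genes. None of the 83 members had every AcfC embryo on one side of every WT embryo, which held for 3.19% of all genes above and 2.39% below.

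The 9 genes were RpS9, RpS10b, RpL6, RpL36, RpL12, RpL34a, RpS7, RpL7A and RpL24, with log2 changes of 0.17 to 0.25 and edgeR adjusted p of 0.069 to 0.096. RpS9, a small subunit protein of the mRNA entry region, had 215, 217, 235, 257 and 282 CPM in AcfC embryos, against 178, 194, 206, 209, 213 and 219 CPM in WT embryos at Stage 3. The change was 0.25 ± 0.08 (SE, adjusted p = 0.069), with 3 AcfC embryos above all WT embryos. RpS10b had 587, 601, 626, 698 and 743 CPM in AcfC, against 506, 532, 549, 561, 575 and 640 CPM in WT embryos, a change of 0.22 ± 0.07 (adjusted p = 0.091). RpL36 had 346, 380, 397, 415 and 475 CPM in AcfC, against 326, 336, 352, 354, 358 and 360 CPM in WT embryos, a change of 0.22 ± 0.07 (adjusted p = 0.074). RpL6 had 791, 792, 853, 895 and 1024 CPM in AcfC, against 685, 708, 747, 753, 807 and 810 CPM in WT embryos, a change of 0.22 ± 0.07 (adjusted p = 0.089). RpL6 lies 0.198 Mb from Acf on 3R, closer than any other member. The highest AcfC embryo was the same for these 4 genes, replicate 4.

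The shift was carried unevenly by the embryos. The median log2 level of the 82 active genes, relative to the WT mean of the stage, was 0.33 in AcfC replicate 4 and 0.20 in replicate 1, but 0.08 in replicate 3, 0.05 in replicate 6 and -0.03 in replicate 5. In WT Stage 3 embryos it ran from -0.10 in replicate 2 to 0.10 in replicate 3. The left-out AcfC replicate 2 stood at 0.26. Of the 82 genes 81 lay above the WT mean in AcfC replicate 4 and 78 in replicate 1, against 69, 66 and 32 in replicates 3, 6 and 5. With the median of each embryo taken off, the median SD of a gene at Stage 3 fell from 0.15 to 0.06 in AcfC and from 0.10 to 0.06 in WT embryos. At Stage 8 it fell from 0.11 to 0.07 in AcfC and from 0.08 to 0.05 in WT embryos, on the log2 scale. Taking off a median of the same genes lowers their SD in part by construction, and no other gene set was compared.

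The stage markers sna and Hsp83 moved with this shift, and their part in it was not tested. The zygotic gene sna had 6.42 CPM in AcfC replicate 1 and 4.19 CPM in replicate 4, and 0, 0.92 and 0.13 CPM in replicates 3, 5 and 6. In WT embryos it had 3.68 CPM in replicate 3, and 0.16 CPM or less in the others. The maternal RNA Hsp83 was lowest in the same AcfC embryos, 2992 CPM in replicate 1 and 2906 CPM in replicate 4, against 3968 to 4510 CPM in the other 3, and lowest among WT embryos in replicate 3, 3838 CPM. The left-out AcfC replicate 2 had 5.54 CPM of sna. The other maternal RNAs, bcd and osk, went the other way from Hsp83 in their Stage 3 means. For bcd these were 197 CPM in AcfC and 165 CPM in WT embryos, and for osk 1550 CPM and 1459 CPM. With only the Stage 3 embryos below 1 CPM of sna, 3 AcfC and 5 WT embryos, the median of the members was 0.06, and 1 member was called higher (RpS10b, 0.16, edgeR adjusted p = 0.090) and 1 lower. This selection was made after seeing the data. It left out AcfC replicates 1 and 4 and WT replicate 3, the embryos with the highest shift in each fitted group. Leaving out the highest AcfC embryos lowers this median by itself, so the smaller median is no test of staging. Germline markers, which mark the pole cells and the maternal RNA they inherit, differed in part between the genotypes at Stage 3. Of 4 of them 2 were called higher in AcfC Stage 3 embryos, against 6.34% of all genes, pgc with 287 CPM in AcfC and 229 CPM in WT embryos and gcl with 444 CPM in AcfC and 410 CPM in WT embryos (edgeR adjusted p = 0.091 for both). Of the others, vas had 317 CPM in AcfC and 360 CPM in WT embryos and osk 1550 CPM in AcfC and 1459 CPM in WT embryos, neither called. The part of these markers in the shift was not tested either.

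Single embryos decided the count of higher genes. It was 0 without AcfC replicate 1, without AcfC replicate 4, without WT replicate 2 or without WT replicate 5, 1 without WT replicate 1 or 6, 3 without WT replicate 4, 16 without AcfC replicate 3, 19 without AcfC replicate 5 and 27 without WT replicate 3. It was 21 with DESeq2 or with all 6 AcfC embryos, and 0 within either set of library indexes. Calls over all genes moved as well, from 463 of 7307 higher in the main fit. They ran from 272 of 7195 without AcfC replicate 1 to 841 of 7198 without WT replicate 3. DESeq2 called 599 of 7307 higher and the fit with all 6 AcfC embryos 614 of 7242. Within index set 1 only 32 of 7242 were called higher, and within index set 2 298 of 7218. The median stayed between 0.09 and 0.17 when any single embryo was left out.

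After ZGA no difference between AcfC and WT embryos was detected for any of the 85 members tested. None passed an adjusted p of 0.1 with edgeR or with DESeq2, against 4.28% of 9452 genes with edgeR (2.14% higher and 2.15% lower). With edgeR 2 had an unadjusted p under 0.05, RpL28 (0.21) and RpS2 (-0.15), as did 1517 of all 9452 genes. The median log2 change was 0.04, against 0.005 for all genes, and 10% of members lay below -0.03 and 10% above 0.12. No member had groups that did not overlap, against 1.12% of all genes above and 1.17% below. The median shift of single embryos ran from -0.006 to 0.19 in AcfC and from -0.06 to 0.09 in WT embryos, AcfC replicate 2 being the highest.

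The genotype effect was not shown to differ between the stages. In 1 fit of 23 embryos the interaction passed for none of 83 members with edgeR or DESeq2, against 2.72% of 8702 genes with edgeR (1.24% positive and 1.48% negative), and 1 member, RpL3, had an unadjusted p under 0.05. The median interaction was -0.08, against -0.002 for all genes.

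Other genes of the translation machinery were examined beside the ribosomal protein genes. Of 28 genes of ribosome biogenesis, such as rRNA modification and RNA polymerase I, 7 were lower and none higher in AcfC Stage 3 embryos (25.0% called lower, against 5.67% of all genes), with a median log2 change of -0.12, opposite in sign to the ribosomal protein genes. The largest changes were those of nop5, a core protein of box C/D snoRNPs, and Polr1A, the largest subunit of RNA polymerase I. nop5 averaged 261 CPM in AcfC and 358 CPM in WT embryos at Stage 3, a change of -0.45 ± 0.08 (edgeR adjusted p = 0.0065). Polr1A averaged 157 CPM in AcfC and 203 CPM in WT embryos, a change of -0.37 ± 0.10 (adjusted p = 0.035). With the embryos below 1 CPM of sna 3 of the 28 were called lower, with a median of -0.14, and between 0 and 9 over 14 alternatives. None of 24 translation factors was called at Stage 3 with edgeR, with a median of 0.04, and DESeq2 called 3 higher. In the edgeR test 4 had an unadjusted p under 0.05, as did 1795 of all 7307 genes. Over 14 alternatives 0 to 3 were called higher and 0 to 3 lower, the 3 lower within index set 2, the embryos of one of the sets of library indexes. Of 70 mitochondrial ribosomal protein genes 4 were called lower (5.71%, against 5.67% of all genes) and none higher, with a median of -0.08.

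Between the stages these lists had called genes in both directions, as did all genes, of which 51.5% were higher and 34.7% lower in AcfC and 48.8% higher and 39.3% lower in WT embryos. Ribosome biogenesis genes had 21 higher and 6 lower of 28 in AcfC, with a median of 0.93, and 20 higher and 6 lower in WT embryos, with a median of 0.71. Fib, the methyltransferase of box C/D snoRNPs, rose by 1.82 in AcfC and 1.60 in WT embryos, and Ns4, a nucleostemin-family GTPase gene, fell by 1.46 in AcfC and fell by 1.23 in WT embryos on the log2 scale. Translation factors had 16 higher and 6 lower of 24 in AcfC and 15 higher and 6 lower in WT embryos. Among them eIF4A, the RNA helicase of initiation, rose by 1.05 and 1.13, and eIF4E1, the cap-binding protein, fell by 2.42 in AcfC and fell by 2.37 in WT embryos. Of 70 mitochondrial ribosomal protein genes 22 were higher and 17 lower in AcfC and 21 higher and 23 lower in WT embryos, with medians of 0.09 and 0.04. The cytosolic ribosomal protein genes, with 83 of 85 higher in AcfC and 82 of 83 higher in WT embryos, had no gene called lower with TMM, although 2 in AcfC and 1 in WT were called lower when scaled to all counts and 1 in WT within index set 2.

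Of 13 growth and core promoter regulators, at Stage 3 Mnt, the antagonist of Myc, was higher in AcfC embryos (376 CPM, against 298 CPM in WT embryos, edgeR adjusted p = 0.025) and Xrp1, a transcription factor induced in Minute mutants, was lower (3.87 CPM, against 5.83 CPM in WT embryos, adjusted p = 0.084). At Stage 8 Xrp1 was higher in AcfC embryos (8.71 CPM, against 3.40 CPM in WT embryos, adjusted p = 0.085). The median of the list was 0.07 at Stage 8 and 0.04 at Stage 3. Between the stages Thor, the 4E-BP that restrains cap-dependent translation, had the largest rise and Mnt the largest fall in both genotypes.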

How the data were processed

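Total RNA of single embryos was depleted of ribosomal RNA and sequenced from non-directional libraries. Per the labels and the methods, the authors mapped reads with STAR 2.5.0a to the release 6 genome and deposited raw counts of uniquely mapped reads per gene, with no normalization; reads shared by near-identical paralogs are lost. Members were matched by gene ID in the Ensembl annotation of the same assembly (86), and 4 (RpL19, RpL27A, RpL31 and RpS10b) through ID and symbol pairs in the tables of the study. No sequence is shown.

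Genes coding for protein stayed in a comparison when fewer than 50% of its embryos had a count of 0. Counts were TMM-normalized, and each comparison was fitted on its own groups with edgeR 4.0.16 (glmQLFit, glmQLFTest, two-sided, R 4.3.3), with Benjamini-Hochberg adjustment over all genes tested and a cutoff of 0.1. The interaction was fitted on 23 embryos. Errors of fold changes are the log2 change over the square root of the F statistic. Depth was 4213692 to 11935129 counts per embryo; counting intervals and floors cover counting error only. DESeq2 1.42.0, other scalings and filters, index sets and each embryo left out were alternatives. Scripts were tested on simulated data.

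The members and lists were chosen with earlier results of these data known. Named members were both genes of each paralog pair, the 4 largest called changes per comparison and direction, the 3 highest and 3 lowest levels per kb in WT, and Acf. The lists were stage markers, germline markers (4), translation factors (24 of 26 matched), ribosome biogenesis (28 of 28), and growth and core promoter regulators (13 of 14); eEF1alpha1, eIF5A, Tor, nos and wg are not analysed here. Labels do not say whether embryos came from separate collections, so p-values measure the spread between these embryos. AcfC Stage 3 replicate 2 was recognised as the excluded embryo through the mean counts of the study. Results for some members are not reported here.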

Additional observations from a re-analysis of the deposited data

Results flagged for a closer look

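In 108 groups of 5 or 6 embryos examined, 6 had an embryo far from the others, near the rate of about 1 in 20 that chance gives. The groups share embryos and are not independent. WT Stage 8 replicate 2 stood high for 2 genes, RpL10Ab with 1586 CPM (others 1302 to 1375 CPM) and RpS14b with 126 CPM (others 99.6 to 108 CPM). AcfC Stage 8 replicate 2 stood high for RpL37-1, with 1133 CPM (others 923 to 998 CPM). AcfC Stage 8 replicate 6 stood low for RpS19a, with 966 CPM (others 1130 to 1219 CPM). AcfC Stage 3 replicate 5 had an RpS15Ab share of 1.60% of the pair (others 2.81 to 3.22%). WT Stage 3 replicate 4 stood high for RpS15Ab, with 21.5 CPM (others 14.9 to 17.0 CPM).

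In 4 genes of the compared lists the effect of AcfC differed between the stages by the interaction term of edgeR's quasi-likelihood test, which is the Stage 8 effect minus the Stage 3 effect on the log2 scale. It was 0.54 for nop5 (adjusted p = 0.0081), 0.51 for Polr1A (adjusted p = 0.069), 0.37 for Nop56, a partner of nop5 (adjusted p = 0.058), and 1.96 for Xrp1 (adjusted p = 0.024). These 4 are named because they passed. The lists held 28 genes of ribosome biogenesis, 24 translation factors and 13 growth and core promoter regulators, and of all 8702 genes tested 2.72% were called. Xrp1 was at 3 to 9 CPM in these embryos on average. No ribosomal protein gene passed this test.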

How the results depend on the processing

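Members called higher in AcfC before ZGA numbered 9, but 0 at a cutoff of 0.05, 21 with DESeq2, 2 without a filter, 4 with the index set as a covariate, 21 with all 6 AcfC embryos, 0 within index set 1 and 0 within index set 2, 4 in one fit of 4 groups, 2 with all-counts scaling, 1 with embryos below 1 CPM of sna, and 0 to 27 with single embryos left out. Of all 7307 genes 463 were higher, but 287 at a cutoff of 0.05, 599 with DESeq2 and 436 with the index set covariate. With all-counts scaling 240 were higher, and with the replicate block 176. The count was 314 of 9927 without a filter, 32 of 7242 within index set 1 and 298 of 7218 within index set 2. It was 206 of 8702 in one fit of 4 groups and 303 of 7165 with the sna limit. Members called lower numbered 1, but 0 within index set 1, and 1 with each embryo left out. After ZGA and for the interaction 0 members were called under every alternative run. The labels give replicate numbers no shared origin, correlations of same-numbered embryos over genes ran from -0.53 to 0.27, and in each of the 4 comparisons at least 3 embryos of the first group correlated best with another number; the replicate block gave 0 members higher and 1 lower before ZGA, against 9 and 1.

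Between the stages, all-counts scaling gave 2 lower in AcfC and 1 in WT, with medians of 0.30 and 0.34; it turned RpL34a to -0.073 in AcfC and to -0.037 in WT, RpL38 to -0.087 in AcfC, and RpLP0 to -0.24 in AcfC and to -0.082 in WT, of which RpLP0 in AcfC was called. In WT the median was 1.01 with DESeq2 and 1.01 with RLE, 0.81 within index set 1 and 0.81 in one fit of 4 groups; 1 member was lower within index set 2, and 0 to 1 with single embryos left out (1 without WT Stage 8 replicate 2), where the median ran from 0.80 to 0.89.

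The Stage 8 minus Stage 3 difference in RP share was 3.18 percentage points in AcfC, but 0.77 over all counts, and 3.37 in WT, but 0.85 over all counts and 3.85 without the 50 most abundant other genes. Per kb of exon the RpL24-like share difference between stages was 6.57 points in AcfC and 5.21 in WT, against 4.89 and 3.92 by counts. Depth limits the 8 near-silent genes. The cause of these changes was not tested.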
